A study of Rattus norvegicus with 6 samples.

Results

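The 10 regulators of G protein signalling (RGS) described here are Rgs2, Rgs4, Rgs8, Rgs16, Rgs7, Rgs9, Rgs17, Rgs10, Rgs12 and Rgs14, out of 30076 gene symbols in the deposited tables. They were chosen by their measured values, with the FPKM of manipulated and untreated rats already known and Rgs9 and Rgs16 lying on opposite sides. Their differences between the groups are therefore given as a description, without a test. Each gene had a single row in each of the 6 libraries, 60 rows in all, and none of these rows named a neighbouring gene as well. All 10 reached the minimum of a mean of 1 FPKM over the 6 libraries that a gene needed to enter the fit across genes. Rgs16 reached it through the untreated libraries, since its mean in manipulated rats was 0.971 FPKM.

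RGS proteins speed up the hydrolysis of GTP by G protein alpha subunits, through a domain that all of them share, and so shorten the signal that a receptor sends into the cell. They are sorted by sequence into subfamilies, named R4, R7, RZ and R12, which differ in the domains around the RGS domain and in the alpha subunits they act on. In the forebrain, RGS proteins are known for limiting signals of dopamine, opioid, muscarinic and glutamate receptors, and single members mark single regions: Rgs4 is abundant in cerebral cortex, Rgs9 in striatum, Rgs16 in thalamus and the suprachiasmatic nucleus, and Rgs14 in area CA2 of the hippocampus.

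The 6 animals were male F344 rats, 18 months old, and the tissue was labelled prefrontal cortex. The manipulated group, replicates 4, 5 and 6, received cranial osteopathic manipulation, which is done by hand on the head, here by a Doctor of Osteopathy, over 7 days under isoflurane at 1.5 to 3%. The untreated group, replicates 1, 2 and 3, received no manipulation but was anaesthetised too. A coronal section 1 mm thick was taken with a brain matrix from the dorsal end of the prefrontal cortex, and each rat gave 1 library of total RNA. RNA was taken from the whole section, so each value is an average over all cells in it.

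FPKM is a fragment count scaled by the length of the transcript and by how many fragments the library mapped, so levels can be compared between genes. Depth is given here in relative terms, since the tables hold no read totals: the value estimated from the deposited intervals was 0.914, 0.913 and 1.16 in manipulated and 1.05, 1.04 and 0.950 in untreated libraries. The 10657 genes tested had a median of 4.01, 4.07 and 2.75 FPKM in manipulated and 5.50, 3.98 and 5.17 FPKM in untreated libraries, so manipulated replicate 6 stood lowest. The median log2 fold change of all tested genes, manipulated over untreated on the scale of log2(FPKM + 1), was -0.36, and 87.0% of them lay below 0. With median-ratio scaling, which sets the libraries to a common median ratio, that median was -0.0037, and a member's scaled value is given wherever it differs in direction or in overlap. The tissue label was checked against markers. The excitatory cortical genes Slc17a7, Tbr1 and Neurod6 were present in all 6 libraries, but markers of striatum, thalamus and hypothalamus were detected as well. As deposited, the summed levels of the striatum and the thalamus markers did not overlap between the groups. Neither did those of the hippocampus and the astrocyte markers given further below. The labels do not give the level at which each section was cut, so that level and the treatment cannot be told apart in any difference between the groups.

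Rgs9 and Rgs16 had the largest differences of the 10 genes, in opposite directions, and the sequences just before their starts are shown because the results turn on this pair. They are the 250 bases upstream of the RefSeq start in the assembly GRCr8, 5′ to 3′ on the strand of the gene, at chr10:94770388-94770637 (minus strand) for Rgs9 and chr13:68437870-68438119 (plus strand) for Rgs16. Capitals mark matches to the CCAAT box and the GC box.
Rgs9 promoter: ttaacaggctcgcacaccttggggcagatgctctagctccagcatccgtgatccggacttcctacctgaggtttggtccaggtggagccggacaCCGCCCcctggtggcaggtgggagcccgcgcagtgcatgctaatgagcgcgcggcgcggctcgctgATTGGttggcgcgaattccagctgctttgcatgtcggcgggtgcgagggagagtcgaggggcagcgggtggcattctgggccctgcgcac
Rgs16 promoter: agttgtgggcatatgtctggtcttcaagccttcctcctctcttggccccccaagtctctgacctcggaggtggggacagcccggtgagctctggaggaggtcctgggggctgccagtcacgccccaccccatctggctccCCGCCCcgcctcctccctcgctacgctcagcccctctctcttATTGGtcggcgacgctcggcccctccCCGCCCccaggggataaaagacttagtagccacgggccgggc

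Both stretches were rich in G and C, with 65.6% in Rgs9 and 66.8% in Rgs16. Motifs were searched on both strands, and none of the matches in these 2 promoters overlapped another. The CCAAT box, CCAAT, stood on the opposite strand 86 to 90 bases before the start of Rgs9 and 64 to 68 bases before that of Rgs16. The GC box, GGGCGG, stood on the opposite strand once in Rgs9, 151 to 156 bases before the start, and in a pair in Rgs16, 105 to 110 and 37 to 42 bases before it. The promoters of this opposed pair thus held the same kinds of match. Both motifs were common, since 34.3% of 27457 RefSeq promoters of this length held the CCAAT box and 32.4% the GC box. All 10 genes had a promoter in the table: CCAAT was found in 5 of them (Rgs2, Rgs4, Rgs8, Rgs16 and Rgs9) and GGGCGG in 7 (Rgs2, Rgs16, Rgs7, Rgs9, Rgs17, Rgs10 and Rgs12). The cyclic AMP response half-site TGACG was found in Rgs2 and Rgs4 and in 19.0% of all promoters, the E-box CACGTG in Rgs7 and in 5.79%, and the TATA box TATAAA in Rgs4 and in 13.1%. A match describes letters in the window and is not evidence of a bound factor.

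Rgs16, a member of the R4 subfamily that acts on Gi and Gq alpha subunits, was lower in every manipulated library. It had 0.991, 0.922 and 0.999 FPKM in manipulated rats, against 7.85, 7.61 and 8.07 FPKM in untreated rats. The libraries within a group lay close together and the groups were far apart, with 0.971 ± 0.0426 FPKM in manipulated and 7.84 ± 0.233 FPKM in untreated rats (SD, n = 3 each). The log2 fold change was -2.17 (SE 0.19), and -1.84 with median-ratio scaling. The intervals that Cufflinks deposited with each value, which cover counting and assignment error in a library and not the spread between rats, reached up to 1.17 FPKM in manipulated and down to 7.05 FPKM in untreated libraries. Read as the interval of a Poisson count, they imply 117, 117 and 147 fragments in manipulated and 1135, 739 and 1051 fragments in untreated libraries. In 5 of the 6 libraries the row carried the annotated gene, and all 6 rows spanned the same 5307 bases, from 71179910 to 71185216 of chromosome 13 in Rnor_6.0, the build of the files.

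The other R4 members differed less. Rgs8, which acts on Gi alpha subunits and is known from Purkinje cells, had 6.47, 5.50 and 3.01 FPKM in manipulated rats, against 10.4, 7.48 and 8.30 FPKM in untreated rats. Its groups did not overlap as deposited, at 4.99 ± 1.79 and 8.72 ± 1.50 FPKM (manipulated and untreated, SD, n = 3 each), with a log2 fold change of -0.74 (SE 0.28). With median-ratio scaling its groups did overlap and the log2 fold change was -0.35. Rgs4, the highest of the 10 in both groups, had 26.2, 27.7 and 13.5 FPKM in manipulated rats, against 19.9, 20.7 and 31.8 FPKM in untreated rats. The groups were mixed: manipulated replicate 6 was the lowest library and untreated replicate 3 the highest, and the means of 22.5 ± 7.81 and 24.1 ± 6.64 FPKM (manipulated and untreated) lay within 1 SD of each other. Rgs2, which is selective for Gq and is induced by neuronal activity, had 7.48, 8.28 and 4.58 FPKM in manipulated rats, against 7.80, 5.59 and 10.2 FPKM in untreated rats. Its groups overlapped too. The log2 fold changes of Rgs4 (-0.13, SE 0.35) and Rgs2 (-0.19, SE 0.29) were smaller than their errors as deposited. With median-ratio scaling they were 0.31 (SE 0.22) and 0.21 (SE 0.14), larger than their errors.

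**Figure D1:**
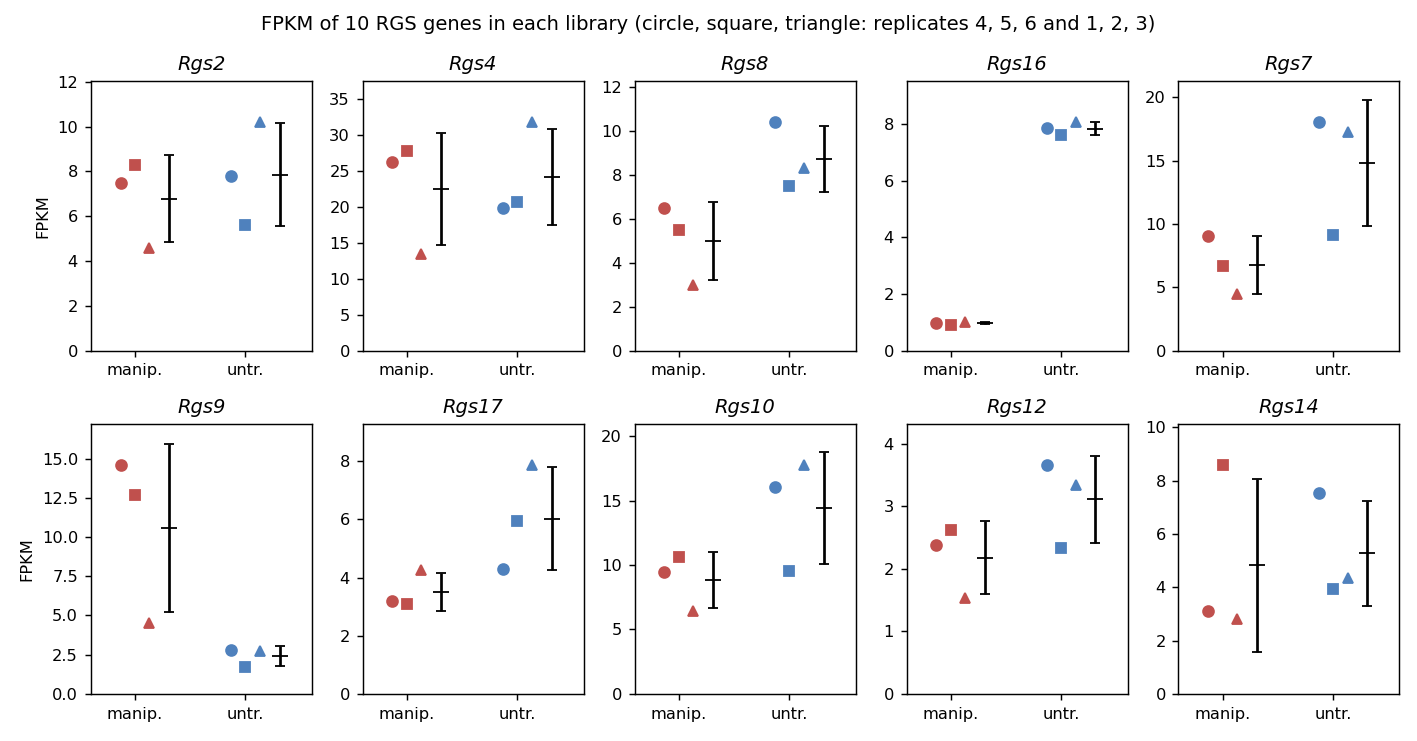
FPKM of each of the 10 RGS genes (vertical axis, each panel with its own scale from 0) in the 3 manipulated libraries (red, left) and the 3 untreated libraries (blue, right); the bars give the mean and SD (n = 3). Rgs16 lies near 1 FPKM in all manipulated and near 8 FPKM in all untreated libraries, Rgs9 is higher in each manipulated library than in any untreated one, and 5 of the genes overlap between the groups.

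Of the R7 members, whose proteins are held stable by the beta subunit Gnb5 and anchored at the membrane by Rgs7bp, Rgs9 was higher and Rgs7 lower in manipulated rats. Rgs9, which acts on Gi and Go alpha subunits and is best known for limiting dopamine D2 and mu opioid receptor signals in striatal neurons, had 14.6, 12.7 and 4.49 FPKM in manipulated rats, against 2.78, 1.70 and 2.75 FPKM in untreated rats. The lowest manipulated library, replicate 6, was still above the highest untreated one, but the manipulated group was widely spread: its coefficient of variation was 50.6%, against 25.5% in the untreated group. The log2 fold change was 1.65 (SE 0.38), and 2.00 with median-ratio scaling. Without manipulated replicate 6 it was 2.12. The deposited intervals of the groups did not meet, reaching down to 4.11 FPKM in manipulated and up to 3.13 FPKM in untreated libraries. The interval of untreated replicate 2 was wide, from 0.915 to 2.49 FPKM.

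Rgs7, widely expressed in neurons and able to pair with the orphan receptor Gpr158, had 9.06, 6.71 and 4.46 FPKM in manipulated rats, against 18.0, 9.10 and 17.3 FPKM in untreated rats. The groups came apart by the narrowest of margins, between manipulated replicate 4 and untreated replicate 2, whose deposited intervals overlapped. The means were 6.74 ± 2.30 FPKM in manipulated and 14.8 ± 4.95 FPKM in untreated rats (SD, n = 3 each), and the log2 fold change was -1.02 (SE 0.34). With median-ratio scaling the groups overlapped and the log2 fold change was -0.61. The pair of R7 members can be set against each other within a library, which no scaling between libraries alters. The ratio of Rgs9 to Rgs7 was 1.61, 1.89 and 1.01 in manipulated libraries and 0.154, 0.187 and 0.159 in untreated libraries. Rgs9 was thus at or above the level of Rgs7 in every manipulated library and well below it in every untreated one.

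Rgs17, of the RZ subfamily that acts on the alpha subunit Gnaz among others, had 3.18, 3.09 and 4.26 FPKM in manipulated rats, against 4.29, 5.93 and 7.86 FPKM in untreated rats. Here manipulated replicate 6 was the highest of its group, and it lay just under untreated replicate 1, whose interval was wide, from 2.50 to 6.09 FPKM. The means were 3.51 ± 0.651 FPKM in manipulated and 6.03 ± 1.78 FPKM in untreated rats (SD, n = 3 each), with a log2 fold change of -0.62 (SE 0.25), or -0.24 and overlapping groups with median-ratio scaling.

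The 3 members of the R12 subfamily overlapped between the groups. Rgs10, a short protein of little more than the RGS domain that is also expressed by microglia, had 9.48, 10.6 and 6.41 FPKM in manipulated rats, against 16.1, 9.53 and 17.7 FPKM in untreated rats. Only untreated replicate 2 fell into the manipulated range; the log2 fold change was -0.63 (SE 0.31), and -0.22 with median-ratio scaling. Rgs12, a large protein with several further domains, had 2.38, 2.63 and 1.53 FPKM in manipulated rats, against 3.65, 2.33 and 3.35 FPKM in untreated rats, a log2 fold change of -0.37 (SE 0.24), next to the median of all genes. Rgs14, which holds back synaptic plasticity in CA2 neurons, had 3.12, 8.57 and 2.80 FPKM in manipulated rats, against 7.54, 3.95 and 4.33 FPKM in untreated rats. Each group had 1 library well above its other two, and the log2 fold change was -0.20 (SE 0.38), or 0.17 with median-ratio scaling. Rgs14 was also the least certain of the 10: the interval of untreated replicate 2 ran from 0 to 8.86 FPKM, and in 1 library its assembled row spanned 114588 bases against 14166 bases in the shortest.

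The R12 gene Rgs10 was set beside microglial markers, because microglia are known to express it. Rgs14, known from area CA2, was set beside markers of the hippocampus, a list not confined to CA2. The summed FPKM of 7 microglial markers (of 8 listed) ranged from 36.6 to 56.9 in manipulated and from 54.1 to 74.4 in untreated libraries, with an exact two-sided permutation p of 0.2. Its 3 highest genes were the complement genes C1qa and C1qb and the growth factor receptor Csf1r, and 6 of the 7 had a lower mean in manipulated rats as deposited, with log2 fold changes below 0 in 4 of the 7 once scaled. The sum of 8 hippocampal markers (of 9 listed) ranged from 2.85 to 5.17 FPKM in manipulated and from 9.89 to 21.0 FPKM in untreated libraries, and an exact permutation test gave p = 0.1, its lower limit with 3 libraries a group. Its 3 highest genes were C1ql2, Prox1 and Amigo2, of which Amigo2 also marks CA2, and 7 of the 8 were lower in manipulated rats. Only these 3 reached a mean of 1 FPKM, so the rest of the list lay near the floor. No marker of either list was at 0 throughout a group. Their part in the levels of Rgs10 and Rgs14 was not tested.

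Counted over the 10 genes, the groups did not overlap in 1 gene that was higher in manipulated rats, Rgs9, and in 4 that were lower, Rgs16, Rgs8, Rgs7 and Rgs17. Over all 10657 tested genes, 1.08% did not overlap with manipulated rats higher and 23.7% with manipulated rats lower. With median-ratio scaling Rgs9 and Rgs16 alone of the 10 did not overlap, 1 in each direction, beside 10.0% of all genes higher and 9.85% lower. Since the genes were selected on this contrast, nothing is read from these counts. The deposited intervals of the groups were apart in Rgs9, Rgs16 and Rgs8. Intervals were not compared over all genes, so nothing is read from this either. As deposited, the log2 fold change was above 0 in 1 gene and below 0 in 9, with a median of -0.49 against -0.36 over all genes, and with median-ratio scaling it was above 0 in 4 and below 0 in 6, with a median of -0.13. Manipulated replicate 6 was the lowest of its group in 8 of the 10 genes, and untreated replicate 2 in 8.

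**Figure D2:**
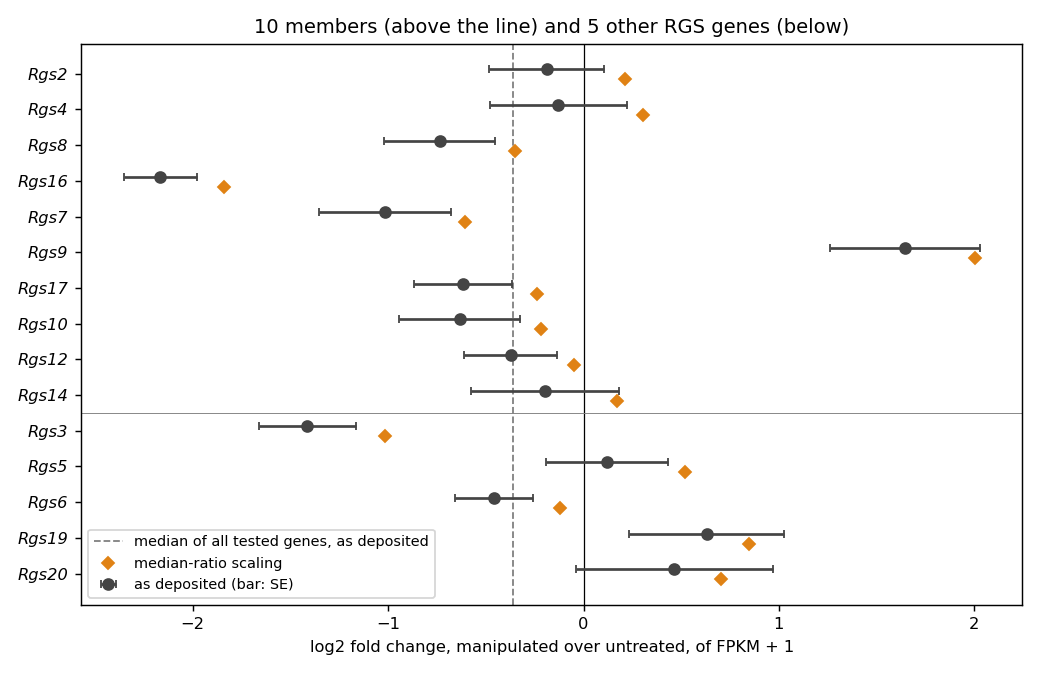
Log2 fold change of FPKM + 1, manipulated over untreated (horizontal axis), of the 10 RGS genes and of 5 other RGS genes, as deposited (grey circles, bars are the SE of the fit) and with median-ratio scaling (orange diamonds); the dashed line is the median of all tested genes, -0.36. Rgs16 at -2.17 and Rgs9 at 1.65 lie farthest from that line among the 10, and Rgs2, Rgs4 and Rgs14 lie on the other side of 0 once scaled.

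The genes were next set against each other within a library, which takes out any scaling between libraries. Each gene's log2 FPKM was taken relative to the mean of the 10 genes in that library. On this scale Rgs9 stood at 1.35, 1.05 and 0.29 in manipulated libraries and at -1.54, -1.80 and -1.64 in untreated libraries, a difference of 2.56. Rgs16 stood at -2.53, -2.73 and -1.87 in manipulated libraries and at -0.04, 0.36 and -0.08 in untreated libraries, a difference of -2.46. The pair thus moved in opposite directions relative to the family mean. The near-equal sizes depend on the centring, since as deposited the log2 fold changes were 1.65 for Rgs9 and -2.17 for Rgs16. Rgs2 was the third gene whose groups came apart, at 0.39, 0.44 and 0.32 in manipulated and -0.05, -0.08 and 0.25 in untreated libraries, a difference of 0.34. As deposited and with median-ratio scaling, the Rgs2 groups overlapped. The other 7 genes overlapped on the centred scale, with differences between -0.57 (Rgs7) and 0.42 (Rgs4). Overlap on that scale was not counted over all genes, so nothing is read from these counts. Rgs12 was the steadiest, with a difference of 0.04. A mean over the 10 genes holds Rgs9 and Rgs16 as well, so these differences describe relative place and not a change of any single gene.

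**Figure D3:**
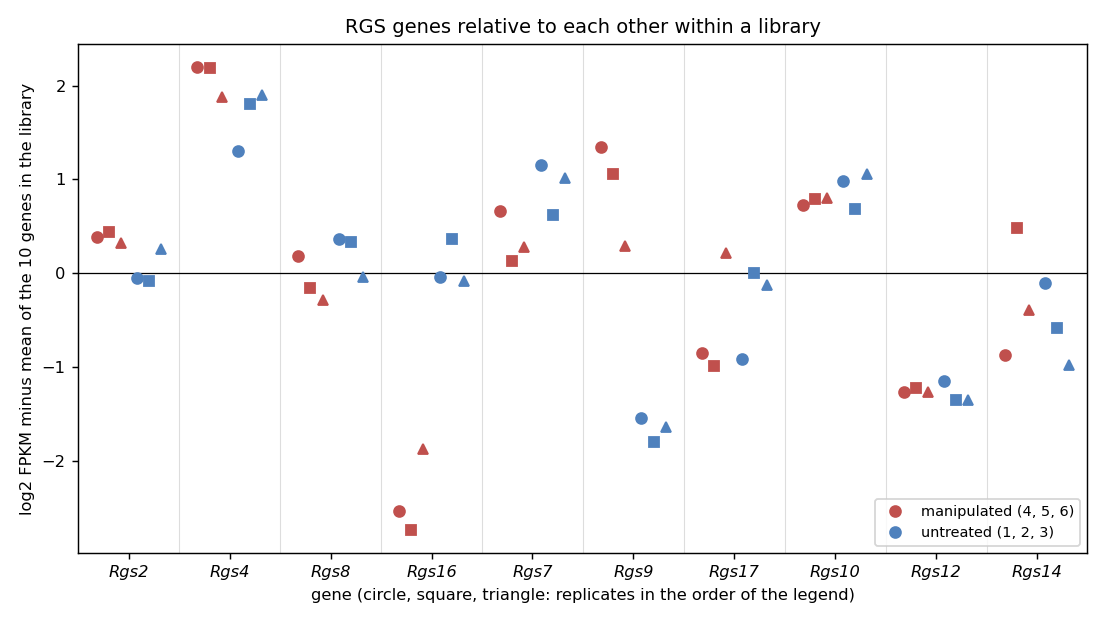
Log2 FPKM of each RGS gene minus the mean of the 10 genes in the same library (vertical axis), for the 3 manipulated (red, left of each pair) and the 3 untreated libraries (blue, right). Rgs9 lies above the family mean in all manipulated and below it in all untreated libraries, while Rgs16 lies at least 1.87 below the mean in all manipulated libraries and within 0.36 of it in the untreated ones.

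The summed FPKM of the 10 genes was 82.9, 86.7 and 46.0 in manipulated and 98.3, 73.9 and 111.6 in untreated libraries, so the group totals overlapped. Rgs9 made up 17.6%, 14.6% and 9.75% of that sum in manipulated and 2.83%, 2.30% and 2.46% in untreated libraries. Rgs16 made up 1.19%, 1.06% and 2.17% in manipulated and 7.98%, 10.3% and 7.23% in untreated libraries. The ratio of Rgs9 to Rgs16 was 14.7, 13.8 and 4.49 in manipulated and 0.354, 0.224 and 0.340 in untreated libraries. Rgs4 was the largest share in each library, at 31.6%, 32.0% and 29.3% in manipulated and 20.2%, 28.0% and 28.5% in untreated libraries.

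Ordered by mean FPKM, the genes of manipulated rats ran from Rgs4 (22.5) through Rgs9 (10.6), Rgs10 (8.83), Rgs2 (6.78), Rgs7 (6.74), Rgs8 (4.99), Rgs14 (4.83), Rgs17 (3.51) and Rgs12 (2.18) to Rgs16 (0.971). Neighbours in that order overlapped in their ranges except Rgs17 with Rgs12 and Rgs12 with Rgs16, so that Rgs16 was the lowest in each manipulated library while the middle of the order was not resolved. In untreated rats the order ran from Rgs4 (24.1) through Rgs7 (14.8), Rgs10 (14.4), Rgs8 (8.72), Rgs2 (7.86), Rgs16 (7.84), Rgs17 (6.03), Rgs14 (5.27) and Rgs12 (3.11) to Rgs9 (2.41). There, neighbours were apart only between Rgs4 and Rgs7 and between Rgs14 and Rgs12, and Rgs9 overlapped with Rgs12 at the low end.

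Chromosome 13 holds 5 of the 10 genes and carried 10 RGS genes in the files. Rgs8 (71086723 to 71141878 in Rnor_6.0; here and for the other genes as in untreated replicate 1) and Rgs16 are neighbours, 38.0 kb apart, and both were lower in manipulated rats, but by unequal amounts: the ratio of Rgs16 to Rgs8 was 0.153, 0.168 and 0.332 in manipulated and 0.755, 1.02 and 0.973 in untreated libraries. Rgs4 (88054817 to 88061108) lies 48.5 kb from Rgs5, and the log2 fold change of each was smaller than its SE. Rgs2 (60845514 to 60849094) begins a cluster with Rgs13, Rgs1, Rgs21 and Rgs18, whose means were under 1 FPKM. Rgs7 (93095117 to 93538117) stands apart from the others. Of the rest, Rgs9 is on chromosome 10 (97509971 to 97582188), Rgs17 and Rgs10 on chromosome 1 (42487388 to 42587721 and 199782031 to 199823386), Rgs12 on chromosome 14 (80975322 to 81053906) and Rgs14 on chromosome 17 (9777842 to 9792007).

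**Figure D4:**
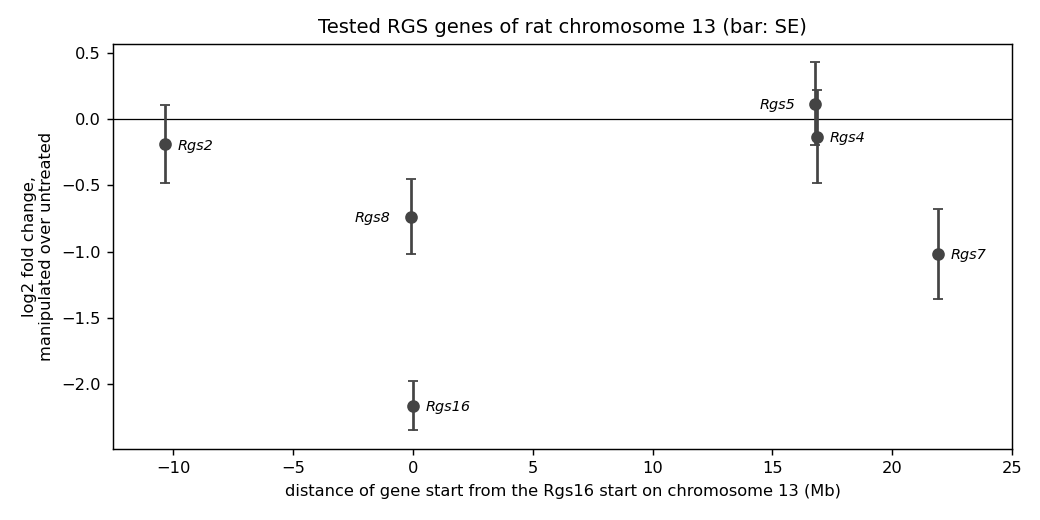
Log2 fold change, manipulated over untreated, with its SE (vertical axis) against the distance of the gene's start from that of Rgs16 on chromosome 13 (horizontal axis, Mb), for the 6 tested RGS genes of that chromosome. Rgs8 and Rgs16 share a position at this scale but differ in value, at -0.74 and -2.17.

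Other RGS genes, which were not among the 10, were tested in the fit across all genes. Of 11 listed, 5 were tested and 0 passed an adjusted p of 0.05 (limma, Benjamini-Hochberg over 10657 genes, two-sided), beside 0.0845% of all genes called higher and 0.272% called lower. At an unadjusted p of 0.05, 0 were higher and 2 lower, beside 1.46% of all tested genes higher and 13.6% lower. The nearest was Rgs3, an R4 gene with long and short forms, which had 4.19, 5.93 and 3.61 FPKM in manipulated rats, against 12.0, 14.4 and 14.7 FPKM in untreated rats. Its groups were well apart, and the log2 fold change was -1.41 (SE 0.25). Its adjusted p in limma was 0.0671 and ranged from 0.0107 to 0.323 over the alternatives tried. It passed in 3 of them, with a mean of at least 5 FPKM (0.0174), with a robust variance prior (0.0126) and with weights per library (0.0107).

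The other 4 tested RGS genes had smaller differences. Rgs6, of the R7 subfamily, had 2.52, 2.13 and 2.12 FPKM in manipulated rats, against 3.22, 3.20 and 4.04 FPKM in untreated rats (log2 fold change -0.46, limma adjusted p 0.326). Rgs5, known from pericytes, had 11.0, 11.8 and 5.36 FPKM in manipulated rats, against 9.31, 8.49 and 6.80 FPKM in untreated rats (log2 fold change 0.12, limma adjusted p 0.794). The RZ gene Rgs19 had 2.08, 2.31 and 1.70 FPKM in manipulated rats, against 1.38, 2.11 and 0 FPKM in untreated rats. Its log2 fold change was 0.63 (limma adjusted p 0.362). The RZ gene Rgs20 had 3.10, 2.68 and 1.41 FPKM in manipulated rats, against 3.64, 1.98 and 0 FPKM in untreated rats. Its log2 fold change was 0.47 (limma adjusted p 0.537). Both were listed at 0 in untreated replicate 3 only. Rgs1, Rgs13, Rgs18 and Rgs22 were under the minimum, Rgs21 was listed at 0 in each library, and no value was found for Rgs11. Within R7, then, Rgs7 and Rgs6 both lay below 0 as deposited, as did 87.0% of all tested genes, and Rgs9 did not. With median-ratio scaling the log2 fold change of Rgs6 was -0.12.

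The partners of the R7 members overlapped between the groups. Gnb5 had 15.0, 26.8 and 9.65 FPKM in manipulated rats, against 13.6, 14.0 and 17.1 FPKM in untreated rats (log2 fold change 0.08, limma adjusted p 0.875). Rgs7bp had 36.8, 12.5 and 5.41 FPKM in manipulated rats, against 13.2, 2.96 and 12.9 FPKM in untreated rats (log2 fold change 0.69, limma adjusted p 0.497). Gpr158 had 12.4, 12.8 and 5.62 FPKM in manipulated rats, against 10.1, 7.70 and 8.16 FPKM in untreated rats (log2 fold change 0.16, limma adjusted p 0.738). In each of the 3 a manipulated library was the highest of all, and in Gnb5 and Gpr158 manipulated replicate 6 was the lowest of all. The assembled row of Gnb5 spanned 149480 bases in manipulated replicate 5, its highest library, against 28777 bases in manipulated replicate 6. Of the 3 genes, 0 had an unadjusted p under 0.05. The retinal anchors Rgs9bp and Gpr179 were under the minimum.

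No gene of the wider pathway passed the adjusted p either. Over the 8 lists of RGS relatives, partners, G protein subunits, receptors and targets, 57 of 89 genes were tested. As deposited, 20 had a log2 fold change above 0 and 37 below, with a median of -0.26, while 87.0% of all tested genes lay below 0. With median-ratio scaling the balance turned to 35 above 0 and 22 below, with a median of 0.16, while 50.7% of all tested genes lay below 0. At an unadjusted p of 0.05, 2 were higher and 9 lower as deposited, beside 1.46% and 13.6% of all genes. Of 10 tested alpha subunits, the targets of the RGS domain, 3 lay above 0 and 7 below as deposited (median -0.18), and 8 above and 2 below once scaled. Gnao1, the most abundant alpha subunit of Gi type in brain, had 63.2, 51.5 and 45.8 FPKM in manipulated rats, against 50.4, 46.3 and 57.7 FPKM in untreated rats, and Gnaz, a target of Rgs17, had 6.71, 6.48 and 5.27 FPKM in manipulated rats, against 9.09, 8.25 and 10.5 FPKM in untreated rats (log2 fold change -0.53, limma adjusted p 0.326). The Gnaz groups were apart, those of Gnao1 overlapped.

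Of 13 tested beta and gamma subunits, 3 lay above 0 and 10 below as deposited (median -0.34), and 9 above and 4 below once scaled. Gng8 had the smallest p of that list, with 3.40, 3.66 and 3.41 FPKM in manipulated rats, against 7.10, 12.0 and 6.46 FPKM in untreated rats (log2 fold change -1.04, limma adjusted p 0.228). Gng7, the gamma subunit that goes with Gnal in striatal neurons, had 14.9, 21.1 and 7.44 FPKM in manipulated rats, against 8.92, 5.60 and 7.46 FPKM in untreated rats (log2 fold change 0.81, limma adjusted p 0.326). As deposited, the Gng7 groups overlapped through manipulated replicate 6, the library in which Rgs9 was lowest of its group. With median-ratio scaling the log2 fold change of Gng7 was 1.22 (limma adjusted p 0.147). Of the potassium channels that G protein beta and gamma subunits open, 3 subunits were tested and 0 passed the adjusted p. Their median was -0.47 as deposited and -0.06 once scaled. Kcnj9, with the smallest p of them, had 3.79, 6.22 and 4.08 FPKM in manipulated rats, against 9.12, 12.2 and 10.6 FPKM in untreated rats (log2 fold change -1.05, limma adjusted p 0.215).

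Of 12 tested receptors that couple to Gi, 6 lay above 0 and 6 below as deposited (median 0.06), and 9 above and 3 below once scaled. The dopamine receptor Drd2, which is also one of the striatum markers below, had 6.58, 5.99 and 2.40 FPKM in manipulated rats, against 1.21, 0.803 and 2.23 FPKM in untreated rats (log2 fold change 1.27, limma adjusted p 0.270). The GABA-B receptor subunit Gabbr2 had 15.3, 15.8 and 11.2 FPKM in manipulated rats, against 31.4, 21.7 and 25.2 FPKM in untreated rats (log2 fold change -0.84, limma adjusted p 0.309). Both were apart between the groups, and neither passed the adjusted p. Of 8 other genes with an RGS homology domain, such as the receptor kinases Grk2 and Grk3, 1 lay above 0 and 7 below (median -0.44), or 2 above and 6 below once scaled, and of 3 tested genes with a GoLoco motif, the G protein binding motif that Rgs12 and Rgs14 also carry, 1 lay above 0 and 2 below with either scale. Of 8 immediate early genes, which like Rgs2 answer to neuronal activity, 1 lay above 0 and 7 below as deposited, next to the 87.0% of all genes below 0, and 4 above and 4 below once scaled.

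Rgs9 went with markers of striatum in these libraries. Of 12 striatum markers, 11 were measured and all 11 had a higher mean in manipulated rats. Their summed FPKM was 226, 238 and 95.3 in manipulated and 66.8, 61.7 and 91.3 in untreated libraries, with an exact two-sided permutation p of 0.1, the smallest possible. The sum was high in the same pair of libraries in which Rgs9 was high, and as deposited manipulated replicate 6 lay close to untreated replicate 3. Median-ratio scaling divides by 0.651 in manipulated replicate 6 and by 1.26 in untreated replicate 3, so it moves these libraries apart. The difference of the group means of the sum was 113 FPKM as deposited and 145 FPKM with that scaling. The highest of the list was Ppp1r1b, which encodes the dopamine-regulated phosphatase inhibitor DARPP-32, with 83.7, 101.3 and 36.0 FPKM in manipulated rats, against 21.3, 21.7 and 34.9 FPKM in untreated rats. Rasd2 and Adcy5 came next. In the fit across genes, 0 of the 11 were called, 9 were higher at an unadjusted p of 0.05, beside 1.46% of all tested genes, and no marker was at 0 throughout a group. The list was chosen with earlier results of these data known, so its p-values and counts are a description. In bulk tissue, a change in the number of cells of a type and a change in RNA per cell cannot be told apart. The part of the markers in the level of Rgs9 was not tested.

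Rgs16 went with markers of thalamus. Of 10 thalamus markers, 8 were measured, all 8 with a lower mean in manipulated rats, and 7 were called lower (limma, adjusted p of 0.05). Their summed FPKM was 22.9, 17.8 and 13.4 in manipulated and 96.2, 96.2 and 104.1 in untreated libraries, with an exact permutation p of 0.1. As with Rgs16, the libraries of a group lay close together and the groups were far apart. Prkcd, a kinase of thalamic relay neurons and the highest of the list, had 4.50, 4.07 and 3.74 FPKM in manipulated rats, against 33.3, 29.5 and 40.8 FPKM in untreated rats (log2 fold change -2.79, limma adjusted p 0.00114), and Tcf7l2, a transcription factor of thalamic neurons, followed (log2 fold change -2.37, limma adjusted p 0.0186). Zic1, the third by level, was not called (log2 fold change -0.49, limma adjusted p 0.368). No thalamus marker was at 0 throughout a group. This list too was chosen with earlier results of these data known, so its calls and p-values are a description. Rgs16 and the markers were lower together, and the part of the markers in the level of Rgs16 was not tested.

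**Figure D5:**
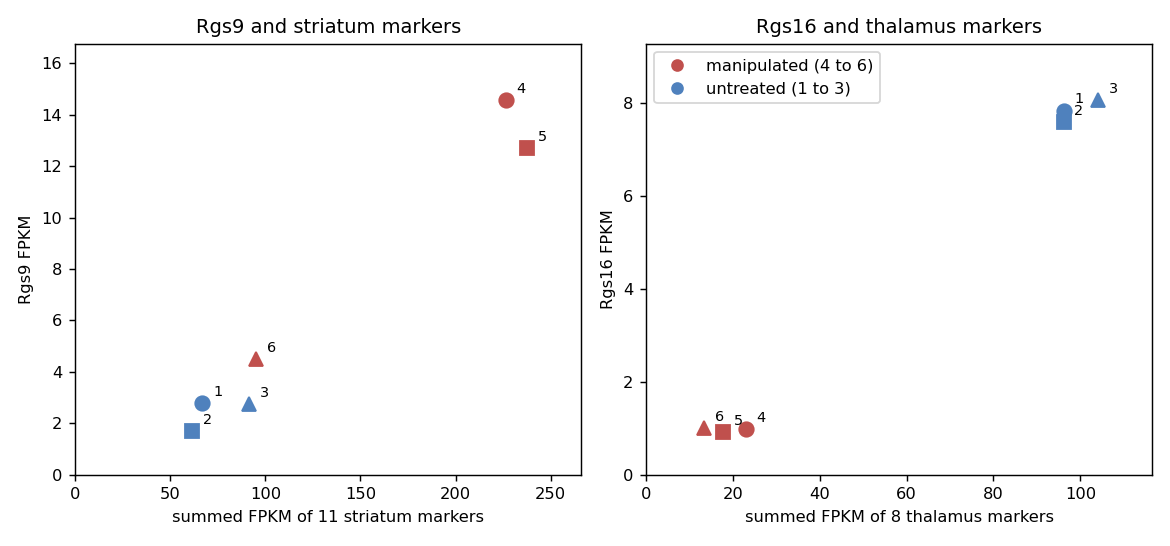
Left, Rgs9 FPKM against the summed FPKM of 11 striatum markers; right, Rgs16 FPKM against the summed FPKM of 8 thalamus markers, with 1 point for each manipulated (red) and untreated (blue) library and its replicate number. Manipulated replicates 4 and 5 stand alone at the upper right of the Rgs9 panel, while the Rgs16 panel splits into the 3 manipulated libraries at the lower left and the 3 untreated ones at the upper right. All values are as deposited, without scaling between libraries.

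Cortical markers, by contrast, overlapped: the sum of 8 such genes was 86.5, 115.0 and 72.4 FPKM in manipulated and 153.6, 100.8 and 121.1 FPKM in untreated libraries (exact permutation p 0.2), as Rgs4, the member most typical of cortex, overlapped too. The sum of 5 interneuron markers, led by Pvalb, Sst and Gad1, ranged from 101.8 to 163.2 FPKM in manipulated and from 104.1 to 165.1 FPKM in untreated libraries (exact permutation p 1). That of 5 oligodendrocyte markers (Mbp and Cnp among the highest) ranged from 697 to 1102 and from 1010 to 1372 FPKM in manipulated and untreated libraries (exact permutation p 0.2). That of 6 vascular markers (Cldn5, Flt1 and Pdgfrb highest) ranged from 10.4 to 17.9 and from 15.7 to 19.97 FPKM in manipulated and untreated libraries (exact permutation p 0.4). The 3 measured astrocyte markers, Gfap, Gjb6 and Aldh1l1, summed to 44.9 to 66.2 FPKM in manipulated and 73.3 to 123.9 FPKM in untreated libraries (exact permutation p 0.1).

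Among 9028 named genes, Drd2, Ppp1r1b, Adora2a and Pde10a were among the 5 whose pattern over the 6 libraries was most like that of Rgs9. Likeness was the root mean square difference of log2(FPKM + 1), each gene centred on its own mean, which was 0.27 for Drd2 and 0.31 for Pde10a. These genes were picked as the nearest, so their nearness is a description only. Adora2a, the adenosine receptor of striatal neurons that also carry Drd2, had 8.39, 7.78 and 2.69 FPKM in manipulated rats, against 1.43, 1.66 and 2.60 FPKM in untreated rats. Drd2, Ppp1r1b, Adora2a and Pde10a all belong to the list of striatum markers. The 5 most like Rgs16 were Ramp3, Slc17a6, Ptpn3, Synpo2 and Zfyve21, at 0.13 to 0.22. Ramp3, the closest, had 1.27, 1.72 and 1.14 FPKM in manipulated rats, against 9.33, 9.39 and 10.5 FPKM in untreated rats, and Slc17a6, which loads glutamate into vesicles of subcortical neurons, had 1.28, 1.11 and 1.17 FPKM in manipulated rats, against 10.8, 9.65 and 11.4 FPKM in untreated rats. Ramp3, Slc17a6 and Synpo2 are on the list of thalamus markers, and Zfyve21 was listed at 0 in all manipulated libraries.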

How the data were processed

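Total RNA of 6 rats was sequenced, 1 library a rat. The deposited FPKM and the bounds of their intervals were made by the authors with STAR 2.7.3a and Cufflinks against Rnor_6.0, per the submitters' processing notes. The version of Cufflinks, the annotation, the strand setting and read totals were not given in the sources used. Without strand, a gene and a transcript on its opposite strand cannot be told apart. Starts count from 0 in the files and are printed from 1.

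FPKM was summed per symbol and library. The 30076 symbols lost 3254 joined to a neighbour in a row, 144 with more than 1 location, 32 absent from some library and 5 whose estimate failed. This left 26641, and 10657 of them averaged 1 FPKM or more and entered the fit. It was run in R 4.3.3 by limma 3.58.1 on log2(FPKM + 1), allowing a mean-variance trend, two-sided, with Benjamini-Hochberg adjustment over all 10657 genes and a threshold of 0.05; this scale understates the change of low genes. The RGS genes and all lists were chosen with earlier results of these data known, so the 10 genes have no test. For the same reason the calls and p-values of the lists are a description. Marker sums were compared by an exact permutation test over 10 splits, whose smallest p is 0.1. The limma p-values set a group difference against the variation between rats, 3 a group, moderated by the trend over all genes. They do not separate the treatment from the level of the section.

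The fragments implied by an interval assume a Poisson count whose bounds lie 2 SDs away. Of 22362 rows of annotated genes with under 20 such fragments, 59.0% came within 0.01 of a whole number, so read counts were not recovered and no count test was run; intervals cover counting error within a library. The interval's half-width was over 20% of the value in 5 of the 60 rows of the 10 genes.

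Every one of the 10 genes is named; of the pathway lists any gene that averaged 1 FPKM or more may be, of the marker lists the 3 highest and any at 0 throughout a group, and for Rgs9 and Rgs16 the 5 likest genes. Some genes that this rule names are not reported here. The fit was tested on simulated data of 10657 genes with 200 changed, in 5 runs: it recovered 9.6% of genes changed by 1 and 73.4% of those changed by 2 on the log2 scale, with a mean of 5.6 false calls. The simulated noise was independent between genes, followed the variance model of the fit and held no difference in scale between libraries. The real libraries did differ in scale, so these rates were not shown to hold for them. Promoters came from RefSeq (GRCr8), matched by symbol. Alternatives covered the pseudocount, the minimum, scaling, the variance model, weights per library, rows naming several genes and leaving out each library; centring within a library was added after the data were seen. Python 3.11.15, pandas 2.3.3, numpy 2.4.6, scipy 1.17.1 and matplotlib 3.10.9 were used.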

Additional observations from a re-analysis of the deposited data

How the results depend on the processing

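Rgs9 stayed higher and Rgs16 lower in manipulated rats under each alternative run. The log2 fold change of Rgs16 was -2.89 and -3.002 with pseudocounts of 0.1 and 0.01, -1.84 and -1.85 with median-ratio and upper-quartile scaling, and -2.46 centred within a library, where Rgs9 was at 2.56. Leaving out each library in turn gave 1.36 to 2.12 for Rgs9 and -2.19 to -2.15 for Rgs16. Rgs2, Rgs4 and Rgs14 turned above 0 with median-ratio scaling (0.21, 0.31 and 0.17), with upper-quartile scaling (0.19, 0.29 and 0.16), without manipulated replicate 6 (0.035, 0.19 and 0.05) and centred within a library (0.34, 0.42 and 0.30); Rgs4 also without untreated replicate 3 (0.08), Rgs14 without untreated replicate 1 (0.049) and Rgs12 when centred (0.036). Without each library in turn, Rgs2 ran from -0.39 to 0.035, Rgs4 from -0.31 to 0.19 and Rgs14 from -0.62 to 0.049. Genes called over the whole table, 9 higher and 29 lower in manipulated rats, were 5 and 15 with no minimum, 17 and 67 with a robust prior, 135 and 805 with weights per library, 5 and 19 with rows naming several genes kept, and 9 to 18 and 17 to 38 without each library. The count called higher was 16 without manipulated replicate 4, 18 without manipulated replicate 6 and 18 without untreated replicate 2, and the count called lower was 17 without manipulated replicate 5. Among other RGS genes 1, Rgs3, was called with a mean of at least 5 FPKM, a robust prior or weights per library; weights per library also called 2 beta and gamma subunits (Gng7 and Gng8), 1 potassium channel (Kcnj9), 2 receptors (Drd2 and Gabbr2) and 1 immediate early gene (Dusp1). With median-ratio scaling the difference of the marker sums turned above 0 for cortex (0.08 FPKM), oligodendrocytes (57.5) and vessels (1.62). That of interneurons, 6.97 FPKM, was 45.8 with scaling and turned below 0 without manipulated replicate 5 (-8.86), untreated replicate 1 (-2.98) or untreated replicate 2 (-3.32), and that of choroid plexus was 158 without manipulated replicate 5 and 658 without manipulated replicate 4. Over all 9 lists, immediate early genes included, 21 genes lay above 0 and 44 below as deposited, and 39 above and 26 below with median-ratio scaling. The cause of these changes was not tested. No paired analysis was possible because the groups share no replicate numbers. With 3 rats a group and no read counts, a small difference in Rgs2, Rgs4, Rgs12 or Rgs14 was not detectable.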

Other observations

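Markers of 2 further tissues, which were set beside none of the RGS genes above, differed among the manipulated libraries. Hypothalamic genes (7 of 8 measured) summed to 7.13, 8.82 and 75.2 FPKM in manipulated and 72.4, 98.2 and 137 FPKM in untreated libraries, with an exact two-sided permutation p of 0.2. The neuropeptide gene Pmch, of melanin-concentrating hormone neurons, had 0.125, 0.0815 and 0 FPKM in manipulated rats, against 20.1, 19.2 and 30.5 FPKM in untreated rats (log2 fold change -4.48, limma adjusted p 3.65e-05). Oxytocin and vasopressin differed within the manipulated group: Oxt had 3.70, 3.97 and 46.5 FPKM in manipulated rats, against 16.2, 24.3 and 40.5 FPKM in untreated rats, and Avp had 0.811, 0.812 and 23.4 FPKM in manipulated rats, against 28.6, 31.6 and 25.8 FPKM in untreated rats. Manipulated replicate 6, in which Rgs9 was lowest of its group, had Oxt above all untreated libraries and Avp just below them, while replicates 4 and 5 were far below the untreated range in both genes.

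Choroid plexus genes (6 of 7 measured) summed to 239, 1237 and 1002 FPKM in manipulated and 461, 459 and 467 FPKM in untreated libraries, with an exact permutation p of 0.4. The thyroid hormone carrier Ttr, which made up most of that sum, had 233, 1211 and 976 FPKM in manipulated rats, against 452, 452 and 462 FPKM in untreated rats, and Folr1 and Kl were the next highest. The channel gene Kcnj13 had 0, 6.47 and 7.02 FPKM in manipulated rats and was listed at 0 in all 3 untreated rats. These genes were high in manipulated replicates 5 and 6 and low in replicate 4, an order that neither Rgs9 nor Rgs16 followed.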
